A study of Mus musculus with 5 samples.

Results

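Transcripts of fatty acid oxidation and of the TCA cycle were followed from HL-1 cells into the microvesicles that these cells release. The set was a fixed list of 40 genes, chosen by function. All probes carrying their symbols in the platform annotation were taken, which gave 61 of the 25697 probes and 38 of the 40 genes. Acsl1, an acyl-CoA synthetase, and Hadha, the alpha subunit of the trifunctional protein, had no probe under their symbol or gene identifier and were not analysed here. By role, the 38 genes comprised 6 of fatty acid uptake and carnitine transfer, 12 of beta oxidation, 3 of electron transfer, 4 of the pyruvate dehydrogenase complex and 13 of the TCA cycle.

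HL-1 is a line of mouse atrial cardiomyocytes, here grown in Claycomb medium without any further treatment named in the labels. The 5 samples were total RNA of the microvesicles (2 arrays), total RNA of the cells (2 arrays) and DNA of the microvesicles (1 array), each labelled as cRNA and hybridised to a 1-colour Illumina mouse array. The DNA had first been given a poly-T tail, which allowed copying and labelling. All material came from this 1 line, and the labels do not say whether replicates were separate cultures, so p-values reflect only how far these samples varied, which could be technical variation. Both cell arrays and microvesicle array 1 lay on chip 1, and microvesicle array 2 and the DNA array on chip 2.

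Long-chain fatty acids enter the cell with the help of the membrane protein CD36 and the binding protein FABP3, are joined to coenzyme A, and pass into mitochondria through the carnitine palmitoyltransferases. Beta oxidation then removes acetyl-CoA in repeated rounds, and the electrons of its acyl-CoA dehydrogenases pass through the electron transfer flavoprotein to the respiratory chain. The TCA cycle oxidises the acetyl-CoA, whether it comes from fat or, through pyruvate dehydrogenase, from glucose. The working heart draws most of its energy from fatty acids, so it holds these enzymes in abundance.

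The microvesicle arrays stood apart from each other, which touches every difference given here. Across the tested probes, normalized values of the cell arrays correlated at 0.99 and those of the microvesicle arrays at 0.58, as a description over probes that share arrays. The median raw signal was 62.6 to 63.6 on the 3 RNA arrays of chip 1 and 90.9 on microvesicle array 2. A probe counted as detected at a detection p under 0.01, and the lowest detected raw signal was 79.1 to 80.7 on chip 1 and 110 on microvesicle array 2. Of 11 cardiomyocyte markers, 9 were detected on both cell arrays, among them Myh6, Myl4 and Nppa, and 5 on both microvesicle RNA arrays. None of 8 fibroblast markers and none of the 5 macrophage markers on the array was detected on any array, 1 of 7 endothelial markers (Tek) was on the cell arrays, and 4 of 6 smooth muscle markers (Acta2, Des, Smtn and Tagln) were on both cell arrays. Of 7 adipocyte markers, 0 were detected on the cell arrays and on microvesicle array 1, and 1 on microvesicle array 2.

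The promoters of 3 genes are shown because Etfa, Etfb and Acadm had the most negative differences of microvesicles from cells among the listed fatty acid genes detected on all 4 RNA arrays. The sequences are the 250 bases before the transcription start from RefSeq on GRCm38.p6, read 5′ to 3′ on the strand of the gene. Capitals mark CCAAT, the box bound by NF-Y, and AAGGTCA, the half-site bound by oestrogen-related receptors, each on either strand. Neither motif overlaps the other in these windows.
Etfa, chr9:55512244-55512493, minus strand: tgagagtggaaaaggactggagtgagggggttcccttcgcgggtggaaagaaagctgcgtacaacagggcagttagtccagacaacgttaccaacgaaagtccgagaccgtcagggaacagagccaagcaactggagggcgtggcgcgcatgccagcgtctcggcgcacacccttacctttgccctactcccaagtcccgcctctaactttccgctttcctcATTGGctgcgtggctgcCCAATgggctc
Etfb, chr7:43443822-43444071, plus strand: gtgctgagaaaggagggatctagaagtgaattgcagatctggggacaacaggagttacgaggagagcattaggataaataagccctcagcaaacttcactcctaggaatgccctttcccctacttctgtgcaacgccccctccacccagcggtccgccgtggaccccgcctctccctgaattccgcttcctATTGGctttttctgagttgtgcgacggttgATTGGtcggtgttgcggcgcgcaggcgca
Acadm, chr3:153944644-153944893, minus strand: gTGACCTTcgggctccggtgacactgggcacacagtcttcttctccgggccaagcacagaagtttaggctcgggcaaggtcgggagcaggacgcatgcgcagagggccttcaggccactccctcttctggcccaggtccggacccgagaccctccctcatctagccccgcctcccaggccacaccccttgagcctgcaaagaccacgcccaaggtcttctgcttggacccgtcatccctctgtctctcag
CCAAT occurred 2 times in each of the promoters of the flavoprotein subunits Etfa and Etfb and 0 times in that of Acadm. Of 40 promoters of the 34 listed genes with an entry, 20 held it (50%), against 33.8% of all 32851 promoters. AAGGTCA was found in 1 of the 40 (2.5%), the Acadm promoter, against 4.08% of all. The motifs were picked after these sequences had been seen, and a match describes letters only.

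The first comparison was which of these transcripts each array detected. Detected members numbered 19 genes on each cell array, 10 on microvesicle array 1, 23 on microvesicle array 2 and 2 on the DNA array. In probes, 25 and 24 of 61 were detected on cell arrays 1 and 2, 11 on microvesicle array 1 and 28 on microvesicle array 2, where 16.3%, 14.1%, 7.88% and 21.8% of all probes were. The members' shares were 41.0%, 39.3%, 18.03% and 45.9%. On each RNA array the members' share was above that of all probes, and microvesicle array 1 detected the fewest of these transcripts.

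**Figure D1:**
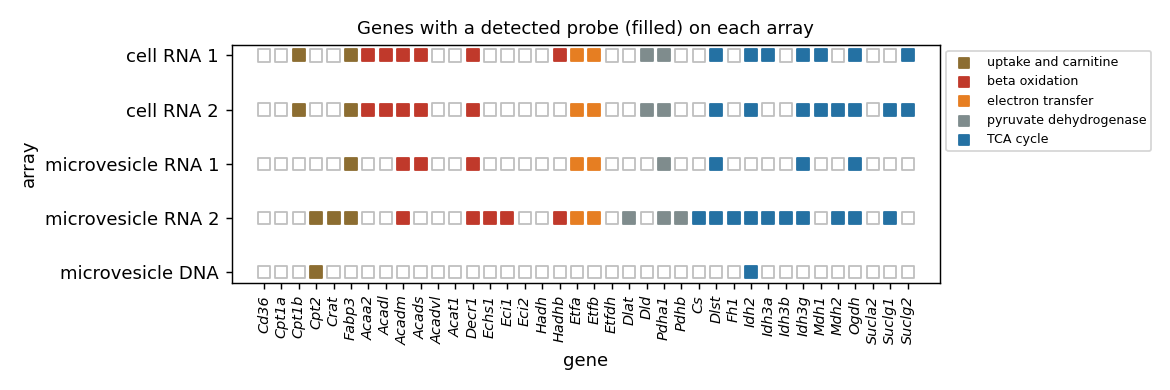
Detection of the 38 genes (horizontal axis, ordered by role) on the 5 arrays (vertical axis), where a filled square marks a gene with at least 1 probe at a detection p under 0.01. The cell arrays and microvesicle array 1 share a core of 9 genes plus Acads, while microvesicle array 2 carries further TCA cycle genes that neither cell array detected.

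A core of 9 genes was detected on all 4 RNA arrays, 23.7% of the 38 against 8.21% of all genes with a symbol. It held Fabp3, Acadm for medium-chain acyl-CoA dehydrogenase, Decr1 for the reductase that handles unsaturated fatty acids, and the flavoprotein subunits Etfa and Etfb. It also held Pdha1 for the E1 alpha subunit of pyruvate dehydrogenase, Idh3g for a subunit of NAD-dependent isocitrate dehydrogenase, and Ogdh and Dlst for the E1 and E2 subunits of the oxoglutarate dehydrogenase complex. A further 6 genes were on both cell arrays and on neither microvesicle array, 15.8% against 4.05% of all genes. These were Cpt1b, the muscle form of carnitine palmitoyltransferase 1, the long-chain dehydrogenase gene Acadl, the thiolase gene Acaa2, the shared E3 subunit gene Dld, the succinyl-CoA ligase subunit gene Suclg2 and the cytosolic malate dehydrogenase gene Mdh1.

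Microvesicle array 2 alone detected 9 members, 23.7% of the 38 against 13.1% of all genes. They were Cpt2 and Crat of carnitine transfer, Echs1 and Eci1 of beta oxidation, Dlat and Pdhb of pyruvate dehydrogenase, and the TCA cycle genes Cs, Fh1 and Idh3b. Citrate synthase, Cs, which opens the cycle, had raw signals of 58.3 and 234 on microvesicle arrays 1 and 2 and 65.0 and 64.5 on the cell arrays. Fumarase, Fh1, had 51.2 and 188 in the microvesicles and 65.2 and 61.6 in the cells. For both genes microvesicle array 2 stood above its detection limit and the other 3 RNA arrays under theirs. Array 2 and its chip cannot be told apart, and neither can the number of vesicles in an extract and the RNA per vesicle.

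By role, the counts were as follows, and the difference between roles was not tested. Of 13 TCA cycle genes, 10 were detected on microvesicle array 2, 3 on microvesicle array 1, and 7 and 8 on the cell arrays. Of the 15 beta oxidation and electron transfer genes on the array, 7 were detected on microvesicle array 2, 5 on microvesicle array 1, and 8 and 7 on the cell arrays. No RNA array detected 8 members, 21.1% against 65.5% of all genes. These were the fatty acid transporter gene Cd36, Cpt1a, which is the liver form of carnitine palmitoyltransferase 1, Acadvl for very long chains, Acat1, Eci2, Hadh, Etfdh and the ligase subunit gene Sucla2. Their highest raw signal on a cell array was between 51.4 and 72.9. For Cpt1, the muscle form Cpt1b was therefore the one detected in the cells. A missing signal of a probe does not show that the transcript was absent.

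The second comparison concerned transcript levels in microvesicles against cells. A probe was tested where 2 or more of the RNA arrays detected it, which left 27 of the 61 probes and 21 of the 38 genes, and each gene was represented by its probe of highest mean signal. No member passed limma's test at an adjusted p of 0.05, and 0% of the 3123 tested genes passed it in either direction. This count depended on the scaling and on the spread of the microvesicle arrays. With median scaling, limma called 12 member probes lower and 0 higher, among 1651 and 7 of all 3878 tested probes, and without microvesicle array 2 it called 17 and 1, among 1735 and 968. At an unadjusted p under 0.05, 4 members lay lower (Cpt1b, Acaa2, Acadl and Suclg2) and 0 higher, where 21.3% of all tested genes lay lower and 5.8% higher. Both cell arrays and neither microvesicle array detected these 4, so they entered the test through the cells alone and their microvesicle values are background. In 12 of the 21 genes the microvesicle values were both lower than either cell value and in 0 both higher, against 50.3% and 14.9% of all tested genes. Taken alone, microvesicle array 1 lay below both cell arrays in 15 of the 21 (57% of all tested genes) and array 2 in 17 (75.2%). The share of 12 in 21 is near its background, as is that of the 4 genes. Of the 21 members, 17 were detected on both cell arrays, 9 of these on all 4 RNA arrays and 6 on neither microvesicle array. Those 6 entered through the cells alone. Of all 787 tested genes that entered so, 708 lay below both cell arrays and 0 above. Of the 1300 detected on all 4 RNA arrays, 459 lay below and 336 above. The part of the filter in these counts was not tested.

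**Figure D2:**
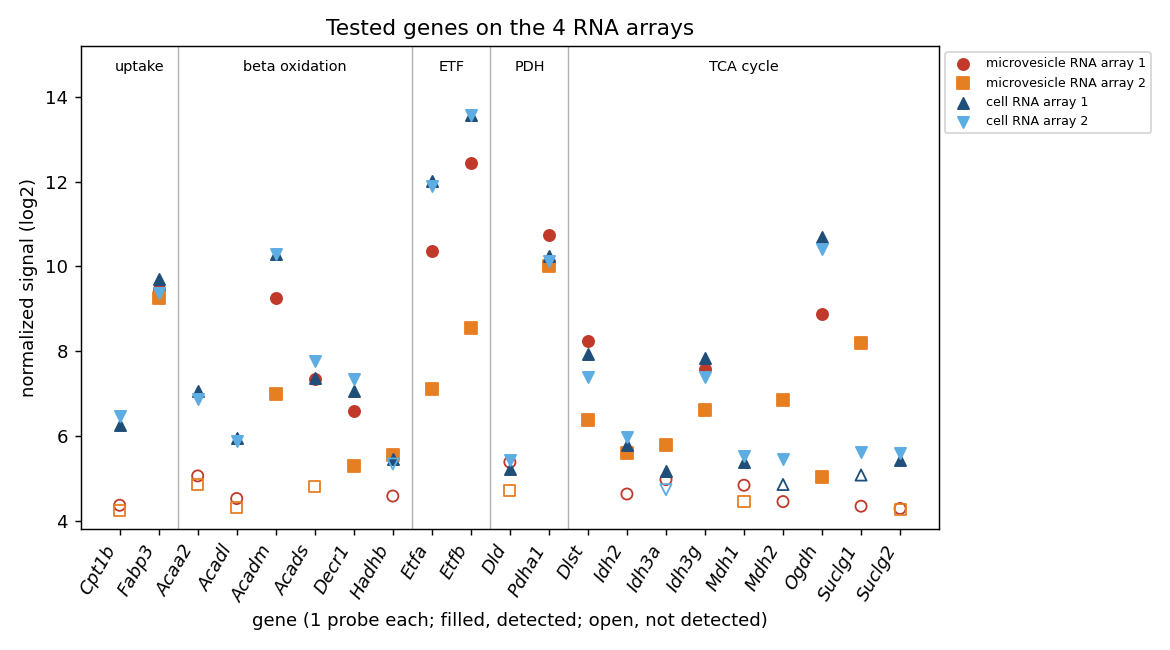
Normalized log2 signal (vertical axis) of the 21 tested genes (horizontal axis, by role; ETF, electron transfer flavoprotein; PDH, pyruvate dehydrogenase) on the 2 microvesicle and 2 cell RNA arrays, with open symbols where the probe was not detected. Cell arrays lie close together throughout, and Etfa, Etfb, Acadm and Ogdh are lower on microvesicle array 1 and lower again on array 2. The raw signal of Acadm was instead higher on array 2 (256) than on array 1 (203).

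Fabp3, the heart fatty acid binding protein gene of the uptake step, had raw signals of 234 and 824 on microvesicle arrays 1 and 2 and 1270 and 768 on cell arrays 1 and 2. The groups overlapped, and the log2 difference of microvesicles minus cells was -0.17 ± 0.35 (SE, n = 2 per group; limma adjusted p = 0.754). With median scaling in place of quantile normalization the difference was -1.40. Cpt1b had 59.3 and 70.9 in microvesicles, under the detection limit, and 137 and 123 in cells. This is at least 1.59-fold lower on average over the microvesicle arrays (limma adjusted p = 0.0917). Its other probe was not detected on any array. This bound sets the cell mean against the lowest detected value of each microvesicle array, or the probe's own value where that is higher. These limits, 6.51 in log2 on array 1 and 4.88 on array 2, are averaged. The cell mean of Cpt1b (6.37) lies under the limit of array 1, so array 1 alone gives no bound and the fold rests on array 2. The same holds for every such fold given here except that of the brightest Acaa2 probe (cell mean 6.96).

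Among the dehydrogenases that start beta oxidation, Acadm had raw signals of 203 and 256 in microvesicles and 1842 and 1438 in cells. Both microvesicle arrays were lower than both cell arrays, with a log2 difference of -2.18 ± 0.90 (95% interval -4.80 to 0.45, limma adjusted p = 0.223). The normalized microvesicle values lay apart, at -1.05 and -3.30 from the cell mean, and the interval holds 0. The raw signal was higher on array 2, so this order of the arrays comes with normalization. With median scaling the difference was -3.29 ± 0.39 (limma adjusted p = 0.0130). Another Acadm probe was not detected on any array. Acads, for short chains, had 94.2 and 107 in microvesicles and 273 and 260 in cells, at -1.50 ± 1.01 (limma adjusted p = 0.375), where the probe was detected on microvesicle array 1 and not on array 2. With median scaling the difference of this probe was -2.49 (limma adjusted p = 0.0149). The other tested Acads probe was detected on neither microvesicle array, at least 1.40-fold lower (limma adjusted p = 0.0998). Acadl was likewise not detected in microvesicles (64.1 and 79.2) and had 116 and 92.2 in cells, at least 1.17-fold lower (limma adjusted p = 0.105). Its remaining 2 probes were not detected on any array.

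Acaa2, the thiolase that ends each round, was measured by 3 tested probes, none of which was detected in microvesicles. The brightest had raw signals of 70.5 and 109 in microvesicles and 222 and 150 in cells, at least 2.41-fold lower (limma adjusted p = 0.0924). The other tested probes gave bounds of 1.24-fold and 1.73-fold, which rest on array 2. The normalized values of all 3 lay below both cell arrays, with microvesicle values that are background. The remaining probe of Acaa2 was not detected on any array. Decr1 had 81.5 and 131 in microvesicles and 222 and 198 in cells, at -1.26 ± 0.59 (limma adjusted p = 0.255). With median scaling Decr1 stood at -1.93 (limma adjusted p = 0.0240). Hadhb, the beta subunit of the trifunctional protein, had 65.3 and 146 in microvesicles and 89.9 and 78.2 in cells. Its groups overlapped, and its difference of -0.33 ± 0.49 turned to 0.0082 with median scaling.

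The flavoprotein subunits Etfa and Etfb were detected on all 4 RNA arrays by their brightest probes, and on each microvesicle array these lay below both cell arrays. The brightest Etfb probe had raw signals of 1869 and 551 in microvesicles and 15830 and 14755 in cells, where the standard errors over beads were 71.7, 23.8, 1145 and 460. The log2 difference was -3.07 ± 1.49 (95% interval -7.42 to 1.27, limma adjusted p = 0.267), with -1.12 on array 1 and -5.02 on array 2. With median scaling it was -4.10 (limma adjusted p = 0.0187). The second Etfb probe had 783 and 536 in microvesicles and 3752 and 2985 in cells, at -1.53 ± 1.11.

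Etfa had 388 and 271 in microvesicles and 5875 and 4275 in cells by its brightest probe, at -3.23 ± 1.25 (95% interval -6.88 to 0.42, limma adjusted p = 0.206). By this probe both arrays lay below the cells, at -1.61 and -4.85. Median scaling gave -4.32 for the same probe (limma adjusted p = 0.0130). The other tested Etfa probes were dim in the cells, with raw signals of 71.5 to 87.4, and stood at -0.29 ± 0.47 and 0.09 ± 0.66. They were detected on microvesicle array 2 (146 and 172), at 0.15 and 0.84 from the cell mean. On array 1 they were not detected, at -0.73 and -0.66. An untested Etfa probe was detected on array 2 alone (112), at 0.45. The -4.85 on array 2 thus rests on the brightest probe. Etfa was the only member with several tested probes whose signs differed, out of 4. Within each array, the log2 ratio of Etfa to Etfb was -2.09 and -1.42 in microvesicles and -1.54 and -1.65 in cells. The ratio of these partner subunits differed between the groups by -0.16, less than the microvesicle arrays differed from each other (exact permutation test, two-sided, p = 1, n = 2 per group). Etfdh, the oxidoreductase that takes electrons from this flavoprotein, had 2 probes and was not detected on any array.

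In pyruvate dehydrogenase, Pdha1 had raw signals of 504 and 1327 in microvesicles and 1788 and 1277 in cells. The groups overlapped, at 0.20 ± 0.42 (95% interval -1.03 to 1.42, limma adjusted p = 0.776), and the sign turned with median scaling, to -1.03. Dld, whose protein is shared by pyruvate and oxoglutarate dehydrogenase, was near the detection limit on all 4 RNA arrays (72.6 and 102 in microvesicles, 82.2 and 80.0 in cells). No bound above 1 could be given for it.

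Ogdh encodes the E1 subunit of oxoglutarate dehydrogenase. Its raw signals were 170 and 118 in microvesicles and 2417 and 1537 in cells, and the log2 difference was -3.60 ± 1.47 (95% interval -7.89 to 0.69, limma adjusted p = 0.220). Array 1 stood at -1.68 and array 2 at -5.52, where the probe was only just above the detection limit. With median scaling the difference of Ogdh was -4.69 (limma adjusted p = 0.0135). Dlst, the E2 subunit of the same complex, had 127 and 198 in microvesicles and 382 and 205 in cells. Its groups overlapped, at -0.36 ± 0.79, with 0.57 on array 1 and -1.29 on array 2, and the difference was -1.28 with median scaling.

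The log2 ratio of Ogdh to Dlst within an array was 0.64 and -1.33 in microvesicles against 2.78 and 3.01 in cells. The groups did not overlap, and their means differed by -3.24 under quantile normalization and -3.41 with median scaling, with Ogdh close to the detection limit on array 2. An exact permutation test gave p = 0.333 (two-sided, n = 2 per group), which is the smallest this design allows. Of this comparison and the ratios of Etfa to Etfb, Ogdh to Pdha1 (-3.80, exact p = 0.333) and Acadm to Decr1 (-0.91, exact p = 0.333), picked after the values were seen, none could reach 0.05.

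The isocitrate dehydrogenase genes showed no common direction. Idh3g had raw signals of 100.03 and 219 in microvesicles and 359 and 203 in cells, at -0.51 ± 0.51 (limma adjusted p = 0.522). Idh3a was close to its detection limit in the cells (80.4 and 68.3), with 69.9 and 160 in microvesicles, and stood at 0.43 ± 0.47. The NADP-dependent mitochondrial enzyme Idh2 had 66.1 and 147 in microvesicles and 106 and 96.0 in cells, at -0.76 ± 0.49. Only Idh2 of these 3 had both normalized microvesicle values below both cell values, although its raw signal on array 2 was higher.

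For succinyl-CoA ligase and malate dehydrogenase, 1 tested gene each was detected on microvesicle array 2 and the other on neither microvesicle array. Suclg1, the shared alpha subunit, had 58.3 and 462 in microvesicles and 77.6 and 84.9 in cells, at 0.92 ± 1.49, which rests on array 2 (2.84) and is -1.01 without it. The probe was not detected on array 1. An untested Suclg1 probe was detected on array 2 alone (138), at 0.74 on array 1 and 0.81 on array 2. Another was detected on no array, at 0.30 and -0.67. Suclg2, the GTP-forming beta subunit, was not detected in microvesicles (55.4 and 74.9) and was just detected in cells (88.8 and 84.3; limma adjusted p = 0.127). Mitochondrial Mdh2 had 62.2 and 241 in microvesicles and 72.8 and 80.3 in cells, at 0.50 ± 0.98 and -0.70 without array 2. Cytosolic Mdh1 was not detected in microvesicles (68.8 and 89.3), with 87.6 and 82.3 in cells. No fold is given for Suclg2 and Mdh1, since their cell values lay under the mean of the lowest detected microvesicle values.

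**Figure D3:**
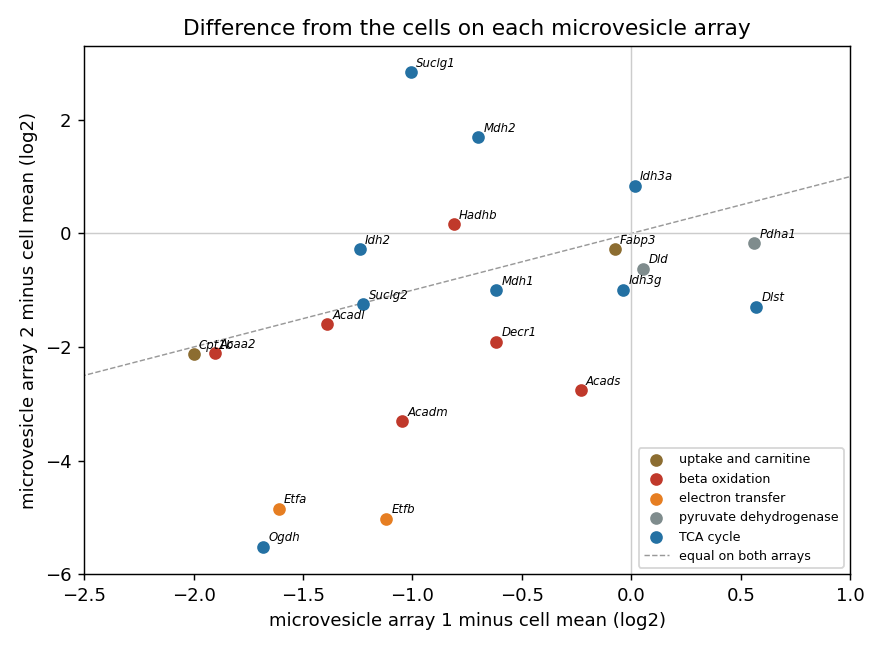
Log2 difference from the cell mean on microvesicle array 1 (horizontal axis) and array 2 (vertical axis) for each of the 21 genes, coloured by role, with a dashed line where both arrays are equal. Ogdh, Etfb, Etfa and Acadm lie far under the line, at -5.52, -5.02, -4.85 and -3.30 on array 2, while Suclg1 and Mdh2 are above 0 on array 2 alone. For Acadm this place comes with normalization, as its raw signal was 203 on array 1 and 256 on array 2.

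The third comparison set beta oxidation and electron transfer genes beside TCA cycle genes. All 8 tested genes of the first group had a difference below 0, and in 7 the microvesicle values were both lower than either cell value. Over all tested genes, both microvesicle values lay below both cell values in 50.3%. Among the 9 tested TCA cycle genes, 6 were below 0 and 3 above, with 4 below both cell arrays. Those 3, Idh3a, Mdh2 and Suclg1, were detected on microvesicle array 2 and 1 cell array. They therefore entered the test with the help of the array where they were high. In the first group only Hadhb entered in this way. The groups thus differ in how their genes entered, and the share of this in the signs and medians was not tested. The median log2 difference was -1.75 for the first group and -0.51 for the second, against -0.84 over all 3123 tested genes, of which 2203 (70.5%) were below 0. The distance between the group medians was -1.24. For microvesicle array 1 alone it was -0.39, from medians of -1.08 and -0.70. For array 2 alone it was -1.45, from -2.44 and -0.99.

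This distance was larger among genes detected on all 4 RNA arrays and smaller without a filter. With that stricter filter, the 4 fatty acid genes Acadm, Decr1, Etfa and Etfb had a median of -2.62, the TCA cycle genes Dlst, Idh3g and Ogdh -0.51, and all 1300 tested genes of that pattern -0.58. Among genes detected on both cell arrays only, the medians were -1.75 (Acaa2 and Acadl) and -1.02 (Mdh1 and Suclg2). All 787 tested genes of that pattern stood at -1.46, and microvesicle values there are background. With no filter, the 15 and 13 genes on the array stood at -0.33 and -0.065, where all 16593 genes stood at 0.016. With median scaling the medians were -2.36 and -0.80, against -1.28 for all tested genes. Genes of 1 pathway are not replicates of a condition, so these medians describe the lists and carry no test.

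**Figure D4:**
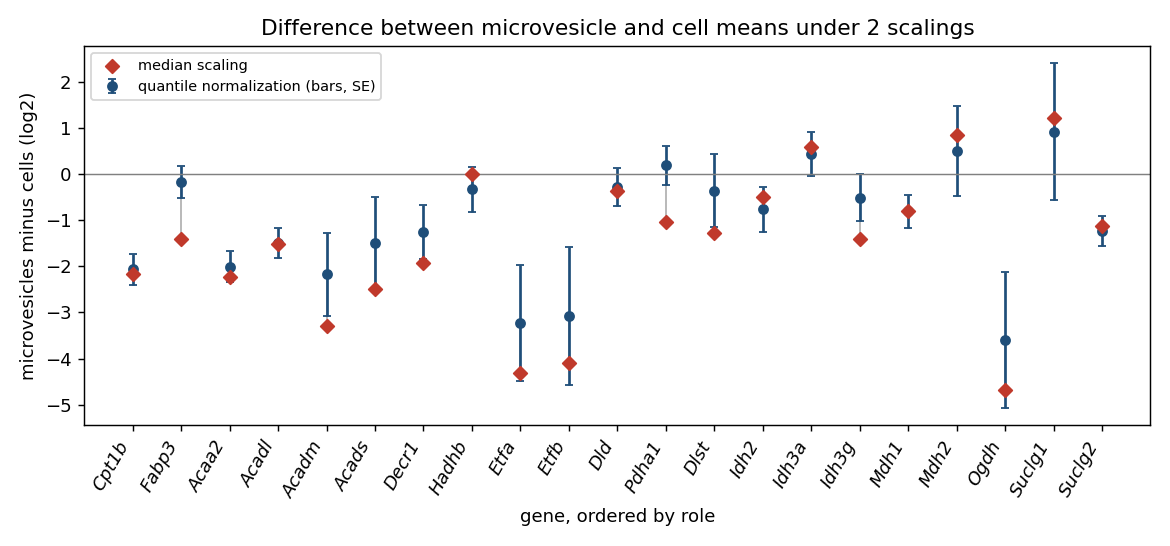
Log2 difference of microvesicle minus cell means (vertical axis) for the 21 genes (horizontal axis) with quantile normalization (circles, bars are SE, n = 2 per group) and with median scaling (diamonds). Median scaling moves the genes detected on all 4 arrays downward, Fabp3 from -0.17 to -1.40 and Pdha1 from 0.20 to -1.03, and leaves dim genes such as Acadl and Mdh1 nearly in place.

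Other genes of these pathways, taken from lists by function, likewise had 0 calls at an adjusted p of 0.05 in limma. Of 36 further fatty acid genes on the array 15 were tested, with 10 below both cell arrays and 2 above, 3 lower and 1 higher at an unadjusted p under 0.05, and a median of -0.98. Over all tested genes the shares were 50.3% and 14.9%, 21.3% and 5.8%, with a median of -0.84. Slc25a20, the carnitine carrier, and Pnpla2, the lipase that opens fat droplets, followed the pattern of Acadm, with raw signals of 148 and 138 against 1358 and 881 for Slc25a20 and 115 and 139 against 1514 and 1385 for Pnpla2. The log2 difference was -3.41 ± 1.01 for Pnpla2 (limma adjusted p = 0.142) and -2.70 ± 1.22 for Slc25a20, which was named after its values were seen. The acyl-CoA synthetase genes Acsl6 and Acsl4 were not detected in microvesicles, at least 1.32-fold and 1.39-fold lower (limma adjusted p = 0.104 and 0.120).

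A few neighbours lay above the cells instead. Nudt19, a coenzyme A hydrolase of peroxisomes, had 321 and 2599 in microvesicles and 239 and 171 in cells, at 3.41 ± 0.45 (limma adjusted p = 0.0917), with both microvesicle arrays above both cell arrays. Its other probe was detected on microvesicle array 2 alone, with 61.2 and 443 in microvesicles and 61.8 and 59.9 in cells. Pdp2, a phosphatase that switches pyruvate dehydrogenase on, had 217 and 9088 in microvesicles and 246 and 147 in cells, at 4.15 ± 1.41 (limma adjusted p = 0.171). On the raw scale its microvesicle array 1 lay between the cell arrays, so that its position above both comes with normalization. The other Pdp2 probe was likewise detected on microvesicle array 2 alone, with 57.4 and 1061 in microvesicles and 66.5 and 56.9 in cells. Of 20 further TCA cycle and pyruvate genes on the array, 7 were tested, with 2 below both cell arrays and 1 above (Pdp2). Over all tested genes 50.3% lay below and 14.9% above. The median of the 7 was 0.997, against -0.84 over all tested genes, and was -0.52 on array 1 and 2.58 on array 2.

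Of 12 regulator genes on the array 4 were tested, with a median of -0.30. Esrra, the oestrogen-related receptor alpha that drives many of these genes in heart, had 230 and 407 in microvesicles and 973 and 789 in cells, at -0.70 ± 0.64. Nrf1, a transcription factor for respiratory genes, had 100.4 and 131 against 661 and 554, at -2.38 ± 0.92 (limma adjusted p = 0.206). The coactivator gene Ppargc1b overlapped between the groups at 0.095 ± 0.42, and Prkaa2, a catalytic subunit of AMP-activated kinase, stood at 2.16 ± 1.46 through array 2 (1401, against 78.5 on array 1 and 119 and 99.6 in cells). With median scaling Esrra stood at -1.82, Nrf1 at -3.38, Ppargc1b at -0.93 and Prkaa2 at 1.60, so the sign of Ppargc1b turned.

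On the microvesicle DNA array, 2 of the 61 probes were detected, those of Cpt2 and Idh2, against 1.33% of all probes. Chance at the threshold gives 0.61 of 61. Cpt2 had a raw signal of 99.5 with a standard error over beads of 4.57, and Idh2 93.6 with 4.59, where the lowest detected signal on that array was 93.5. Both were therefore at the limit of detection. The bright RNA signals of Etfb, Etfa, Ogdh and Acadm had no counterpart on this array, with raw signals of 68.0, 81.6, 65.4 and 74.4, all under that limit.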

How the data were processed

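Raw signals, which the authors deposited as non-normalized mean bead intensity with the standard error over beads, were used together with the detection p-value deposited for each probe. The deposited count of beads behind each mean had a median of 41 on every array. Per the submitters' processing notes, BeadStudio 3.3 was used. The authors' processed intensity table, background-subtracted by its values below 0, served as an alternative only, since the sources used here do not name its method. With limma 3.58.1 in R 4.3.3, the 4 RNA arrays were background-corrected from the detection p-values (neqc, offset 16) and quantile normalized. Quantile normalization gives every array the same distribution and raises the brighter probes of microvesicle array 1. Probes with a detection p under 0.01 on at least 2 RNA arrays were fitted with lmFit and eBayes, two-sided, without a block, and adjusted by Benjamini-Hochberg over all 3878 tested probes. Intervals are 95% intervals of the fit. The fit alone was checked on simulated arrays that all had the same spread. That check left out background correction, normalization and the wider spread of the microvesicle arrays. Groups and replicate numbers came from the sample titles. Every listed gene is accounted for, and values are printed for those with a tested probe. Of the related genes, the 5 with the smallest p are named by rule, and others were named after their values were seen. The lists, members and tests were chosen with earlier results of these data known. Symbols came from the platform annotation, and probe sequences were not used here. The number of arrays limits the precision.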

Additional observations from a re-analysis of the deposited data

Results flagged for a closer look

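Signal was found outside the RNA comparison, on the single microvesicle DNA array. Cpt2 had a detection p of 0.0025 there and Idh2 a detection p of 0.0075, each above the negative control probes of that array at the threshold of 0.01. Neither has a replicate, and 0.61 such probes among the 61 are given by chance. No group had the 4 samples that a check for outlying arrays needs.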

How the results depend on the processing

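The count of 0 members past the threshold held in limma with offset 50, with a detection p of 0.05, on probes detected on all 4 RNA arrays, with the authors' processed values, and with a replicate block. The replicate block gave 0 higher and 0 lower probes over all, and replicate 1 of microvesicles and of cells deviated from their group means at a correlation of -0.24, so the number was not taken as a pairing. Over all tested probes, the calls lower and higher were 1651 and 7 with median scaling, 1416 and 5 without normalization, 677 and 10 with a variance trend, and 163 and 16 without a filter. Member probes then called lower were 12, 11, 7 and 1, with 0 higher, and related pathway probes called lower were 9, 6, 2 and 0. The cause was not tested. With chip as a block, 1735 probes were lower and 968 higher, of which 17 and 1 were member probes and 13 and 2 related ones. Leaving out single arrays gave 0 to 2720 lower and 0 to 968 higher probes, 0 to 18 lower and 0 to 4 higher member probes, and 0 to 16 lower and 0 to 8 higher related probes. The high counts come without either microvesicle array, where the lone remaining one is assumed to vary like the cells, as it also is with the chip block.

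The distance between the medians of beta oxidation with electron transfer and of the TCA cycle stayed below 0 in every alternative run. It was -2.11 on probes detected on all 4 arrays, -0.26 without a filter and -0.39 with the chip block, and -1.51 to -0.39 on leaving out single arrays. Without a filter the medians were -0.33 and -0.065. The TCA cycle median was -0.83 with the authors' values, -0.80 with median scaling, -0.72 without normalization, and -0.99 to -0.29 on leaving out single arrays. Of 282 values of single members under alternatives, 16 reversed, in 6 genes. Hadhb was at 0.0082 with median scaling and 0.083 without normalization, and Pdha1 at -1.03 and -0.95. With the chip block, which equals leaving out microvesicle array 2, Dld was at 0.055, Dlst at 0.57, Mdh2 at -0.70 and Suclg1 at -1.01. With the authors' values Mdh2 was at -0.44 and Suclg1 at -0.83. On leaving out single arrays, the ranges were -0.81 to 0.16 for Hadhb, -0.17 to 0.56 for Pdha1, -0.62 to 0.055 for Dld, -1.29 to 0.57 for Dlst, -0.70 to 1.70 for Mdh2 and -1.01 to 2.84 for Suclg1. The count of members below both cell arrays with 1 microvesicle array alone (15 and 17) was added after seeing the data. Values near the detection limit, as in 6 members not detected in microvesicles, are limited by background.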
